A study of Mus musculus with 4 samples.

Results

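Serglycin is the small core protein of secretory granules on which heparin and chondroitin sulfate chains are built. Its gene, Srgn, and the genes of enzymes that build heparin were followed here on 4 arrays of mouse bone marrow cells. The list held 9 genes: Srgn, Xylt2, Ext1, Ext2, Ndst1, Ndst2, Glce, Hs2st1 and Hs6st1. They were found by exact gene symbol in the annotation table of the array, which gave 16 probe sets for 8 of them, among 18193 genes in all. Ndst1 had no probe set with that single symbol in the table used and was not analysed here.

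The marrow cells were sorted as LSK, that is without lineage markers and with Sca-1 and c-kit on the surface, a fraction in which blood stem and progenitor cells are concentrated. LSK cells that carried a β-catenin retrovirus were sampled at day 3, and the submitters' DKmix cells were β-catenin-transduced LSK cells cultured to day 50 and to day 300. LSK cells with an enhanced green fluorescent protein (eGFP) retrovirus were sampled at day 3 as the control. All were grown with serum, IL-3, SCF, Flt3 and IL-11. The mouse strain and age, the vector's promoter, and whether both DKmix samples came from one culture are not stated in the labels. Each group held 1 array, so no difference has a replicate check and no p-value is given. In such bulk samples, fewer cells of a type and less RNA per cell cannot be told apart.

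Heparin is a highly sulfated form of heparan sulfate, and mast cells are the cells best known for making it. Synthesis starts with a sugar linker on the core protein, the chain is then extended by a polymerase, and N-sulfation, epimerization and O-sulfation follow in the Golgi with sulfate from the donor PAPS. In mice, connective tissue mast cells need Ndst2 to make heparin and need serglycin to store several granule proteases. Neutrophils, macrophages, platelets and cytotoxic lymphocytes also make serglycin, mostly with chondroitin sulfate chains.

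The promoters of Srgn and of the 3 sulfation genes that were higher on both DKmix arrays are shown, as the 250 bases before each start given by RefSeq (GRCm38.p6), 5′ to 3′ on the gene's strand. RefSeq gave 2 starts for Srgn, on the minus strand of chromosome 10, and both windows are printed. Capitals in the Srgn windows mark matches to the E-box CANNTG and to TGACG, which is part of the cyclic AMP response element. Capitals in the other windows mark the GC box GGGCGG. Both strands were searched.
Srgn, chr10:62507758-62508007: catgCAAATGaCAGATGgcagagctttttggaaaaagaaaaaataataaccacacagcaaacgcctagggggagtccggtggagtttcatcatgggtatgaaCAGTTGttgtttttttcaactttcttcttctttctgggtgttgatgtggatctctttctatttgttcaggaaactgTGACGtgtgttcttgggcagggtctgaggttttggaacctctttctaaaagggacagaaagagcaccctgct
Srgn, chr10:62527446-62527695: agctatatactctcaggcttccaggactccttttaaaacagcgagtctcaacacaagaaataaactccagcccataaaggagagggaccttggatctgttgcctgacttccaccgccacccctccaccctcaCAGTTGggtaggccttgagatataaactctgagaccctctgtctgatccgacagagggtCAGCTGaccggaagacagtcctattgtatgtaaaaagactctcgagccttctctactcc
Ndst2, chr14:20734563-20734812, minus strand: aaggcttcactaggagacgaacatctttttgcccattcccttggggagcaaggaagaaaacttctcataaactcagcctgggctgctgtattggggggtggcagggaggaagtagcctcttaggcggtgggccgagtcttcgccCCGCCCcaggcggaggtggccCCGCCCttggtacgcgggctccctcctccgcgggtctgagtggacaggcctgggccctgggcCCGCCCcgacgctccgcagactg
Hs6st1, chr1:36068150-36068399, plus strand: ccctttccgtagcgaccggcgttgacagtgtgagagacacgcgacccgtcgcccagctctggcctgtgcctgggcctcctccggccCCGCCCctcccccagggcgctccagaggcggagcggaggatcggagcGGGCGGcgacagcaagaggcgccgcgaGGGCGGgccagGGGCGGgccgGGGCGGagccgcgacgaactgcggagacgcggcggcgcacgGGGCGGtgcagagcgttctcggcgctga
Hs2st1, chr3:144570217-144570466, minus strand: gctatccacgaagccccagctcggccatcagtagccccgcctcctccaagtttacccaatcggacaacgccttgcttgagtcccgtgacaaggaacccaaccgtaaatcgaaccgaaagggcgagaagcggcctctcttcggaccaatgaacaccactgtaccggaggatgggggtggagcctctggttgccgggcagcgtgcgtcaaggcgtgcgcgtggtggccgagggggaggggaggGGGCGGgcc

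The 2 Srgn windows were 42.8% and 49.6% G and C and held 3 and 2 E-box matches with 0 GC boxes. The TGACG match lay 72 bases before the first of these starts. The enzyme windows were richer in G and C, at 64.8% for Ndst2, 76.4% for Hs6st1 and 64.4% for Hs2st1, and held 3, 6 and 1 GC boxes with 0 E-boxes. Hs2st1 also held 1 match to TGACG, which is not capitalized. Of the 32851 promoter windows in the table, 66.2% held CANNTG, 17.8% TGACG and 32.7% GGGCGG. None of the 5 windows held GATAA, read by GATA factors, or ATCAAAG, read by the TCF partners of β-catenin. These 2 motifs were in 22.6% and 3.21% of all windows. A match is a stretch of letters and not a measured binding site.

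The deposited values were linear intensities scaled to equal array means. A floor of 48.3, the pooled median over the arrays, was set under every intensity before taking ratios, and a ratio with 1 array below it is a lower bound, written "at least". A gene was called higher or lower at 2-fold. The only error measure within the arrays was the disagreement between probe sets of the same gene. As an SD of the log2 ratio it was 0.64 for β-catenin over eGFP at day 3, 0.80 for DKmix day 50 over β-catenin day 3, 0.64 for DKmix day 300 over β-catenin day 3 and 0.91 for DKmix day 300 over DKmix day 50. It leaves out differences between cultures. Signals of different probe sets are not comparable as RNA levels, so each probe set is compared only with itself.

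The arrays differed in RNA quality controls and in cell type markers. The 3′ to 5′ signal ratio of Gapdh was 1.18 on β-catenin day 3, 4.96 on DKmix day 50 and 1.06 at DKmix day 300, against 4.14 on eGFP day 3. Of 12 mast cell markers 9, 11 and 11 were above the floor on the β-catenin day 3, DKmix day 50 and DKmix day 300 arrays, with summed intensities of 4765, 179852 and 83076, against 10 markers and a sum of 1088 on eGFP day 3. Of 10 neutrophil markers 8, 3 and 1 were above the floor in the same order of arrays, against all 10 on eGFP day 3. Of the stem and progenitor markers, Flt3 was below the floor on every array, Kit was 82.9, 3460 and 1263 in the order above, against 55.8 on eGFP day 3, and Ly6a was not analysed here. In the same order Cd34 was 804.1, 2069 and 4293, against 111.8, Procr was 106.9, 13.4 and 75.8, against 47.6, and Slamf1 was 87.6, 62.9 and 39.0, against 5.6. Kit is also on the mast cell list.

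**Figure D1:**
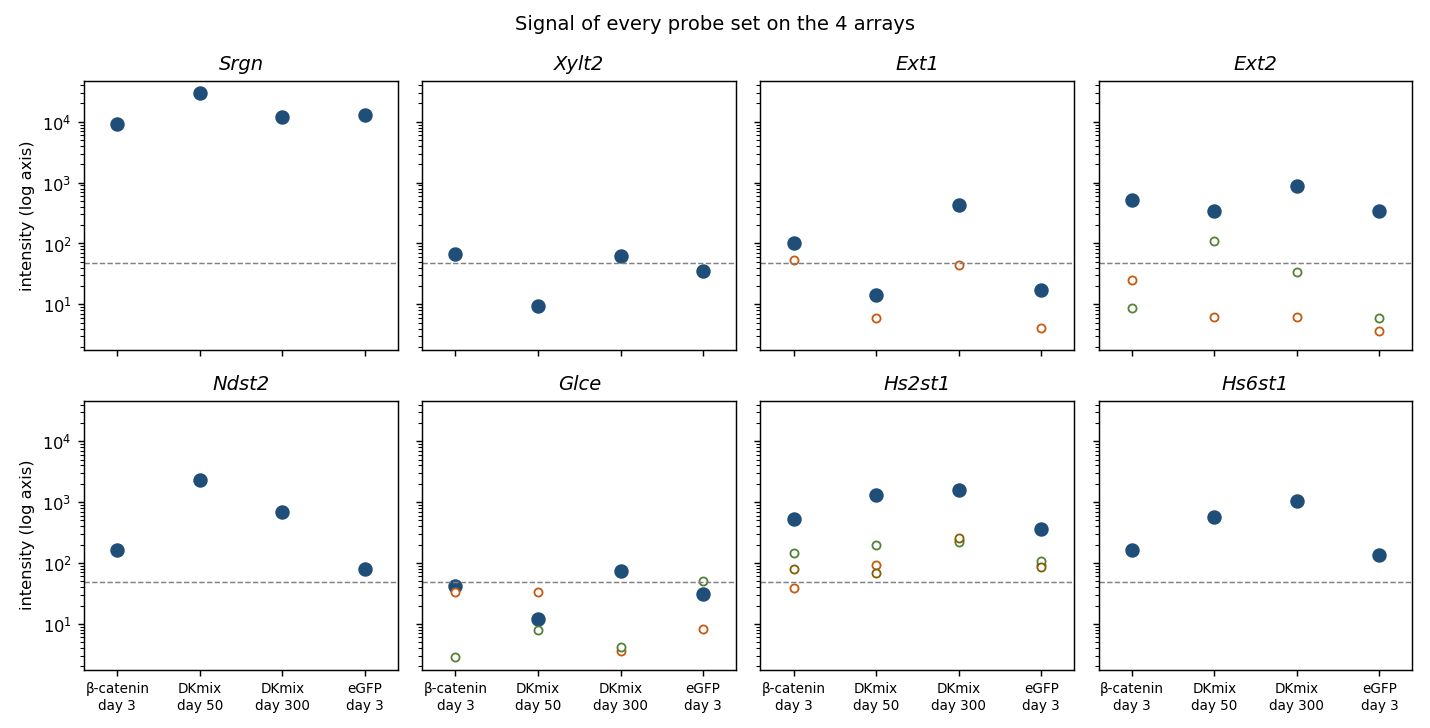
Intensity (log axis) of all 16 probe sets of the 8 genes on the 4 arrays, 1 point per array. Filled points are the probe set that stands for the gene, open points its other probe sets (1 colour each), and the dashed line is the floor of 48.3. By the filled points, Ndst2, Hs2st1 and Hs6st1 were highest on the DKmix arrays, Srgn on DKmix day 50, and Ext1 was below the floor on DKmix day 50 and eGFP day 3. The open Hs2st1 points were not all higher on DKmix day 50 than on both day 3 arrays.

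Srgn, read by 1 probe set, was bright on all 4 arrays and highest on DKmix day 50. Its intensity was 9250 on β-catenin day 3, 29397 on DKmix day 50 and 12163 at DKmix day 300, against 13152 on eGFP day 3. The day 50 array stood apart, and the other 3 arrays lay within a narrow band. The day 50 signal was 3.18-fold above β-catenin day 3 and 2.24-fold above eGFP day 3, and the day 300 signal was 2.42-fold below day 50. The day 50 call over β-catenin day 3 was lost on the hybridisation control scale, with a log2 ratio of 0.73, and the call of day 300 below day 50 was lost with quantile normalization, at -0.49. At day 300 Srgn was 1.31-fold above β-catenin day 3, and this direction turned with the hybridisation controls as the scale, where the log2 ratio was -0.65. At day 3 it was 1.42-fold lower in the β-catenin sample than in the eGFP sample, inside the probe set SD.

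Markers of cells that make serglycin moved beside it in more than one direction. The summed intensity of the mast cell markers was highest on DKmix day 50, as was Srgn. Hdc, on the same list, went the other way and was below the floor on DKmix day 50. It gave 233.8 on β-catenin day 3, 23.0 on DKmix day 50 and 1514 at DKmix day 300, against 82.4 on eGFP day 3. The neutrophil marker sum was 13190 on β-catenin day 3, 716 on DKmix day 50 and 209 at DKmix day 300, against 103009 on eGFP day 3, and Elane, S100a8, S100a9, Lcn2, Camp and Prtn3 were below the floor on both DKmix arrays. The macrophage and dendritic cell marker sum was 22826, 524 and 5704, against 18614, with H2-Aa, H2-Eb1, Mpeg1 and Cd86 below the floor on both DKmix arrays. Cd68 made up most of the day 300 sum, at 469.2, 191.6 and 5407, against 163.2 on eGFP day 3. The sums of the cytotoxic lymphocyte and megakaryocyte markers were also highest on DKmix day 50. The cytotoxic sum was 1796, 25961 and 1042, against 317. Gzmb made up most of its day 50 value, at 25886, while Prf1, Nkg7 and Cd3e were below the floor there. The megakaryocyte sum was 2082, 7793 and 6108, against 2858, with Itga2b making up most of both DKmix values. The part of these markers in the Srgn values was not tested.

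Ndst2, the N-sulfation enzyme, had the largest ratio of the 8 genes on DKmix day 50 over β-catenin day 3. It removes acetyl groups from glucosamine and puts sulfate in their place. Its 1 probe set gave 161.6 on β-catenin day 3, 2337 on DKmix day 50 and 700.0 at DKmix day 300, against 80.8 on eGFP day 3. Both DKmix values lay above both day 3 values. Ndst2 was 14.5-fold higher on DKmix day 50 and 4.33-fold higher on DKmix day 300 than on β-catenin day 3, differences of 3.85 and 2.11 on the log2 scale. It was 3.34-fold lower on day 300 than on day 50, and at day 3 the β-catenin value was exactly 2-fold the eGFP value, at the threshold. On the hybridisation control scale the DKmix log2 ratios over β-catenin day 3 were 2.92 and 1.07.

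Hs6st1, the glucosaminyl 6-O-sulfotransferase, was also higher on both DKmix arrays and had the largest ratio of the 8 genes on DKmix day 300. Its 1 probe set gave 163.6 on β-catenin day 3, 566.7 on DKmix day 50 and 1053 at DKmix day 300, against 135.7 on eGFP day 3. The day 3 arrays were alike and the DKmix arrays stood above them. Against β-catenin day 3 the ratios were 3.46-fold at day 50 and 6.44-fold at day 300. On the hybridisation control scale the log2 ratios were 0.85, short of 2-fold, and 1.64. Unlike those of Srgn and Ndst2, its highest value was on DKmix day 300, 1.86-fold above day 50 and short of 2-fold.

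Hs2st1, the uronic acid 2-O-sulfotransferase, had 4 probe sets, which agreed for day 300 and less so for day 50. The brightest gave 532.6 on β-catenin day 3, 1307 on DKmix day 50 and 1568 at DKmix day 300, against 367.7 on eGFP day 3. Both DKmix values lay above both day 3 values, by 2.45-fold at day 50 and 2.94-fold at day 300 over β-catenin day 3. Both calls were lost on the hybridisation control scale, where the log2 ratios were 0.36 and 0.51. Over the 4 probe sets the day 300 ratio lay between 1.56-fold and 4.89-fold higher, and 3 passed 2-fold. The day 50 ratio lay between 0.85 and 2.45, and only the brightest passed 2-fold. A second probe set gave 143.9, 196.3 and 224.7, against 106.8, and the others gave 79.0, 67.2 and 255.6, against 84.6, and 39.0, 91.2 and 236.1, against 91.9.

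The chain polymerase genes took another course. Ext1 and Ext2 form the complex that adds alternating glucuronic acid and N-acetylglucosamine. The brighter Ext1 probe set gave 103.5 on β-catenin day 3, 14.4 on DKmix day 50 and 427.2 at DKmix day 300, against 17.4 on eGFP day 3. It was below the floor on DKmix day 50 and eGFP day 3 and above it on the other 2 arrays. The day 300 signal was 4.13-fold above β-catenin day 3 and at least 8.84-fold above day 50, while β-catenin day 3 was at least 2.14-fold above eGFP. A second probe set was low throughout, at 53.0, 5.9 and 44.2, against 4.1, and did not show the day 300 increase over day 3.

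Ext2 was above the floor on every array by its brightest of 3 probe sets. That probe set gave 526.3 on β-catenin day 3, 339.7 on DKmix day 50 and 890.3 at DKmix day 300, against 337.2 on eGFP day 3. The order of the arrays was that of Ext1, with DKmix day 50 and eGFP day 3 alike and low. Day 300 was 2.62-fold above day 50 and 1.69-fold above β-catenin day 3. The other probe sets lay below the floor except 1 that gave 8.6, 110.7 and 34.4, against 5.9, and so went the opposite way between day 300 and day 50.

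Xylt2 and Glce were dim. Xylt2, a xylosyltransferase that starts the linker, gave 68.2 on β-catenin day 3, 9.4 on DKmix day 50 and 61.3 at DKmix day 300, against 35.5 on eGFP day 3. Glce, the epimerase that turns glucuronic into iduronic acid, gave 42.4, 11.8 and 74.9, against 31.5, by its brightest of 3 probe sets. Neither passed 2-fold in any comparison with the floor in place. The other Glce probe sets stayed below the floor except 1 that reached 50.7 on eGFP day 3.

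Several polymerase and linker genes had an order over the arrays that the 3′ to 5′ ratios of Gapdh, actin, Thr and Trpn also had, and that of Lys did not. Ext1, Ext2 and Xylt2 were higher on both arrays with Gapdh 3′ to 5′ ratios near 1 (β-catenin day 3 and DKmix day 300) than on both with high ratios (DKmix day 50 and eGFP day 3). That is 3 of 8 genes, and over all genes above the floor somewhere 11.9% had that order. Srgn had the opposite order, as did 14.5% of all genes. The part of RNA quality in these values was not tested.

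**Figure D2:**
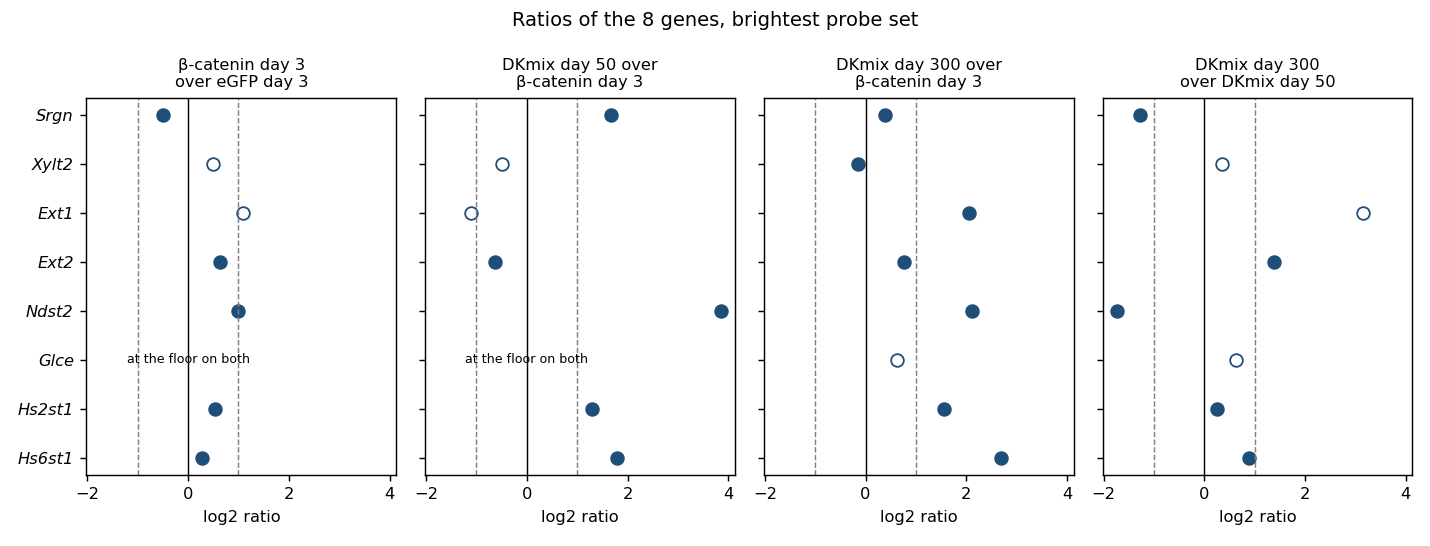
Log2 ratio of each of the 8 genes in the 4 comparisons, by the brightest probe set. Open points are bounds with 1 array at the floor, dashed lines mark 2-fold, and a gene whose signals both lay at the floor has no point. Ndst2, Hs2st1 and Hs6st1 lie past 2-fold on the higher side for both DKmix arrays over β-catenin day 3, and Ext1 lies on opposite sides at day 50 and day 300.

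Counted together, the genes were more often higher than lower on the DKmix arrays. In DKmix day 50 over β-catenin day 3, 4 of 7 measured genes were at least 2-fold higher (Srgn, Ndst2, Hs2st1 and Hs6st1), where 16.1% of all genes were. Ext1 was the 1 lower gene, where 15.7% of all genes were lower. In DKmix day 300 over β-catenin day 3, 4 of 8 were higher (Ext1, Ndst2, Hs2st1 and Hs6st1) and 0 lower, against 14.0% and 14.4% of all genes. The median log2 ratio over the measured genes was 1.30 at day 50 and 1.16 at day 300, and over all genes 0.067 and -0.076. Both comparisons share the β-catenin day 3 array. The hybridisation controls, spiked in at equal amounts, set another scale, on which day 50 had 1 higher gene (Ndst2) and 3 lower. On that scale 696 of all genes were higher and 5583 lower at day 50, against 2208 and 2162 on the deposited scale. The median log2 ratio of all genes was then -0.73, so lower calls were common.

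The DKmix arrays differed from each other within the set. In DKmix day 300 over DKmix day 50, Ext1 and Ext2 were at least 2-fold higher, where 15.1% of all genes were, and Srgn and Ndst2 were lower, where 15.9% were. At day 3, β-catenin over eGFP, 2 of 7 measured genes were higher (Ext1 and Ndst2) and 0 lower, against 10.2% and 9.42% of all genes. The median log2 ratio of the measured genes was 0.49 for day 300 over day 50 and 0.53 at day 3, and over all genes -0.14 and -0.015.

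Ndst2, Hs2st1 and Hs6st1 exceeded both day 3 arrays by 2-fold or more on each DKmix array, 3 of 8, where 2.78% of all genes did. On the hybridisation control scale Ndst2 alone did, 1 of 8, where 0.894% of all genes did. In the opposite direction there were 0 of 8, where 2.68% of all genes were. DKmix day 300 with β-catenin day 3, and DKmix day 50 with eGFP day 3, are pairs with no array in common, with like Gapdh 3′ to 5′ ratios within each pair. The DKmix day 50 and eGFP day 3 arrays were less alike in other controls, at 3.41 against 1.83 for actin, 2.26 against 0.97 for Lys and 5.22 against 1.65 for Trpn. The same 3 genes were at least 2-fold higher in both pairs, where 4.00% of all genes were, and 0 were lower in both, where 3.90% were. For these 3 genes this follows from their place 2-fold above both day 3 arrays and is no second check. In DKmix day 50 over eGFP day 3, Ndst2 was 28.9-fold, Hs6st1 4.18-fold and Hs2st1 3.56-fold higher. The 4 Hs2st1 probe sets ran from 0.794 to 3.56 in that comparison, with 2 lower and only the brightest past 2-fold, so its place among the 3 genes rests on that probe set. Counting Srgn, 4 of 5 measured genes were higher there and 0 lower, against 15.6% and 15.0% of all genes.

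**Figure D3:**
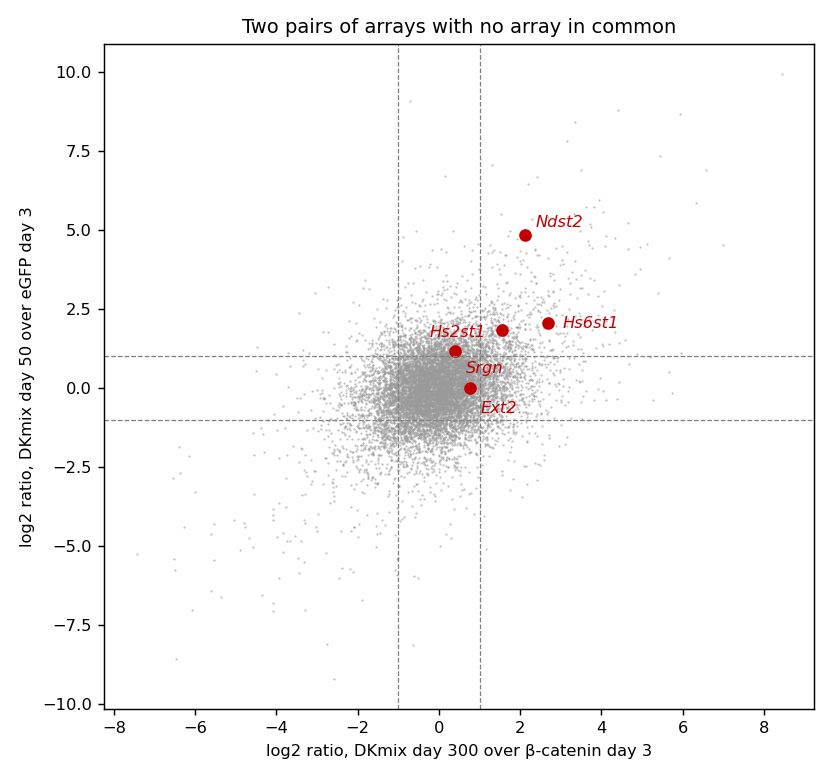
Log2 ratio of DKmix day 50 over eGFP day 3 against that of DKmix day 300 over β-catenin day 3, 1 grey point per gene measured in both pairs, with dashed lines at 2-fold. Red points are 5 of the 8 genes, and the other 3 (Ext1, Xylt2 and Glce) were at the floor on DKmix day 50 and eGFP day 3. Ndst2, Hs6st1 and Hs2st1 lie past 2-fold on the higher side in both pairs, as any gene 2-fold above both day 3 arrays on both DKmix arrays must.

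Papss2 was higher on both DKmix arrays by 3 of its 4 probe sets, and the other genes of sulfate donor supply that are named here were not all higher. Papss2, a synthase of PAPS, gave 9.5 on β-catenin day 3, 3459 on DKmix day 50 and 6094 at DKmix day 300, against 151.6 on eGFP day 3, by its brightest of 4 probe sets. The size of the difference depended on the probe set. By the brightest it was at least 71.6-fold at day 50 and at least 126-fold at day 300 over β-catenin day 3, where that probe set was below the floor. The 2 probe sets above the floor there gave 9.61-fold and 6.55-fold at day 50, and 10.4-fold and 9.13-fold at day 300. The day 3 arrays had no settled order, since 1 of these probe sets gave 131.6 on β-catenin day 3 and 44.8 on eGFP day 3. The remaining Papss2 probe set gave 13.6 on β-catenin day 3, 60.8 on DKmix day 50 and 4.1 at DKmix day 300, against 40.9 on eGFP day 3. It was at least 1.26-fold higher at day 50 and below the floor at day 300, so it did not show the increase. Papss1, the other PAPS synthase, gave 253.0, 127.0 and 990.4, against 166.1, and was 7.80-fold higher at day 300 than at day 50, the day 50 value being the lowest of the 4.

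Of 11 donor and sugar nucleotide genes, 3 were at least 2-fold higher and 0 lower in DKmix day 50 over β-catenin day 3, where 16.1% of all genes were higher and 15.7% lower. In DKmix day 300 over β-catenin day 3, 6 were higher and 0 lower, where 14.0% and 14.4% of all genes were. Slc35d1, a Golgi and ER transporter of nucleotide sugars, was 6.10-fold and 2.73-fold higher, and Ugdh, which makes UDP-glucuronic acid, 2.37-fold and 2.29-fold. Of the 2 Slc35d1 probe sets, both passed 2-fold at day 50 and 1 at day 300. Slc35b2, which carries PAPS into the Golgi, had log2 ratios of -0.70 at day 50 and 1.06 at day 300. The median log2 ratio of the 11 genes was 0.31 at day 50 and 1.06 at day 300.

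Other sulfotransferases of the pathway were among the highest ratios. Hs6st2, a second 6-O-sulfotransferase, gave 82.0 on β-catenin day 3, 1813 on DKmix day 50 and 2051 at DKmix day 300, against 5.9 on eGFP day 3. Its log2 ratios over β-catenin day 3 were 4.47 and 4.64, and 2 of its 4 probe sets passed 2-fold while the others stayed at or near the floor. Hs3st1, which makes the rare 3-O-sulfated site that binds antithrombin, gave 105.1, 1030 and 541.7, against 36.8, and was 9.80-fold and 5.15-fold higher. Both genes had DKmix values above both day 3 values. These genes were in a list of 12 sulfotransferases and sulfatases (Sulf1 and Sulf2), of which 11 had a probe set. By the brightest probe set 2 of 7 measured were higher at day 50 and 4 of 6 at day 300, with 0 lower. The medians were 0.55 and 1.61. Sulf2 was among the 4, 2.56-fold higher, while 2 of its 3 measured probe sets were at least 2-fold lower at day 300. The shares of all genes called higher were 16.1% and 14.0%, and called lower 15.7% and 14.4%. The day 50 count of higher genes is not far from its share.

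Linker and chain-start enzymes were called in both directions. Of 8 measured genes 3 were higher and 2 lower in DKmix day 50 over β-catenin day 3, and 1 higher and 1 lower in DKmix day 300. All-gene shares were 16.1% higher and 15.7% lower at day 50 and 14.0% and 14.4% at day 300, which the day 300 counts are close to. Fam20b, a xylose kinase of the linker, was 2.62-fold higher and Extl2 2.49-fold higher at day 50. Extl3, which adds the first N-acetylglucosamine of the chain, was at least 3.63-fold lower at day 50. For each of Fam20b, Extl2 and Extl3, only 1 of 2 measured probe sets passed 2-fold at day 50. B3galt6, a linker galactosyltransferase, was at least 4.88-fold lower at day 300. The medians were 0.39 and 0.46.

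Lysosomal genes of chain breakdown were partly higher. Of 7 measured genes 4 were higher and 1 lower at day 50, and 3 higher and 0 lower at day 300, over β-catenin day 3, where 16.1% and 15.7% of all genes were called at day 50 and 14.0% and 14.4% at day 300. Ids, iduronate sulfatase, gave 169.2 on β-catenin day 3, 1840 on DKmix day 50 and 479.0 at DKmix day 300, against 151.0 on eGFP day 3. It was 10.9-fold and 2.83-fold above β-catenin day 3 by its brightest of 6 probe sets. Of the measured Ids probe sets, 3 of 4 passed 2-fold at day 50 and 1 of 3 at day 300. Gusb, β-glucuronidase, was 3.75-fold lower at day 50 and 1.24-fold higher, short of the threshold, at day 300.

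Chondroitin sulfate genes, whose chains serglycin can carry in place of heparin, were also described. Of 11 measured genes 4 were higher at day 50 and 3 at day 300, with 0 lower, where 16.1% and 14.0% of all genes were higher, and the medians were 0.49 and 0.72. Chst15, which makes doubly sulfated chondroitin sulfate E, gave 22.8 on β-catenin day 3, 624.0 on DKmix day 50 and 368.4 at DKmix day 300, against 189.6 on eGFP day 3. Of its 2 probe sets, both passed 2-fold over β-catenin day 3 at day 50 and 1 at day 300. Chsy1, a chondroitin polymerase, was 3.72-fold higher at day 50 and 1.13-fold higher, short of the threshold, at day 300. Chst13, a chondroitin 4-O-sulfotransferase, was at least 12.3-fold lower on β-catenin day 3 than on eGFP day 3.

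Other proteoglycan core proteins were mostly dim. Of 18 genes, 13 were above the floor on β-catenin day 3, 13 on DKmix day 50 and 3 at DKmix day 300, against 8 on eGFP day 3. Of all genes 61.6%, 64.3% and 56.6% were, against 62.0% on eGFP day 3. In DKmix day 300 over β-catenin day 3, 0 of 13 measured genes passed 2-fold on the higher side and 3 on the lower, against 14.0% and 14.4% of all genes. The median was -0.83, from a ratio with DKmix day 300 at the floor. In DKmix day 50 over β-catenin day 3, 1 of 16 was higher and 2 lower, against 16.1% and 15.7%. Agrn, agrin, was at least 5.92-fold higher on β-catenin day 3 than on eGFP day 3.

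Granule proteins that bind serglycin were mostly lower on DKmix day 300 than on DKmix day 50. Cpa3, mast cell carboxypeptidase, gave 1560 on β-catenin day 3, 45531 on DKmix day 50 and 15951 at DKmix day 300, against 134.7 on eGFP day 3. Of 8 measured genes in this list, 7 were at least 2-fold lower and 0 higher in DKmix day 300 over DKmix day 50, where 15.9% of all genes were lower and 15.1% higher.

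**Figure D4:**
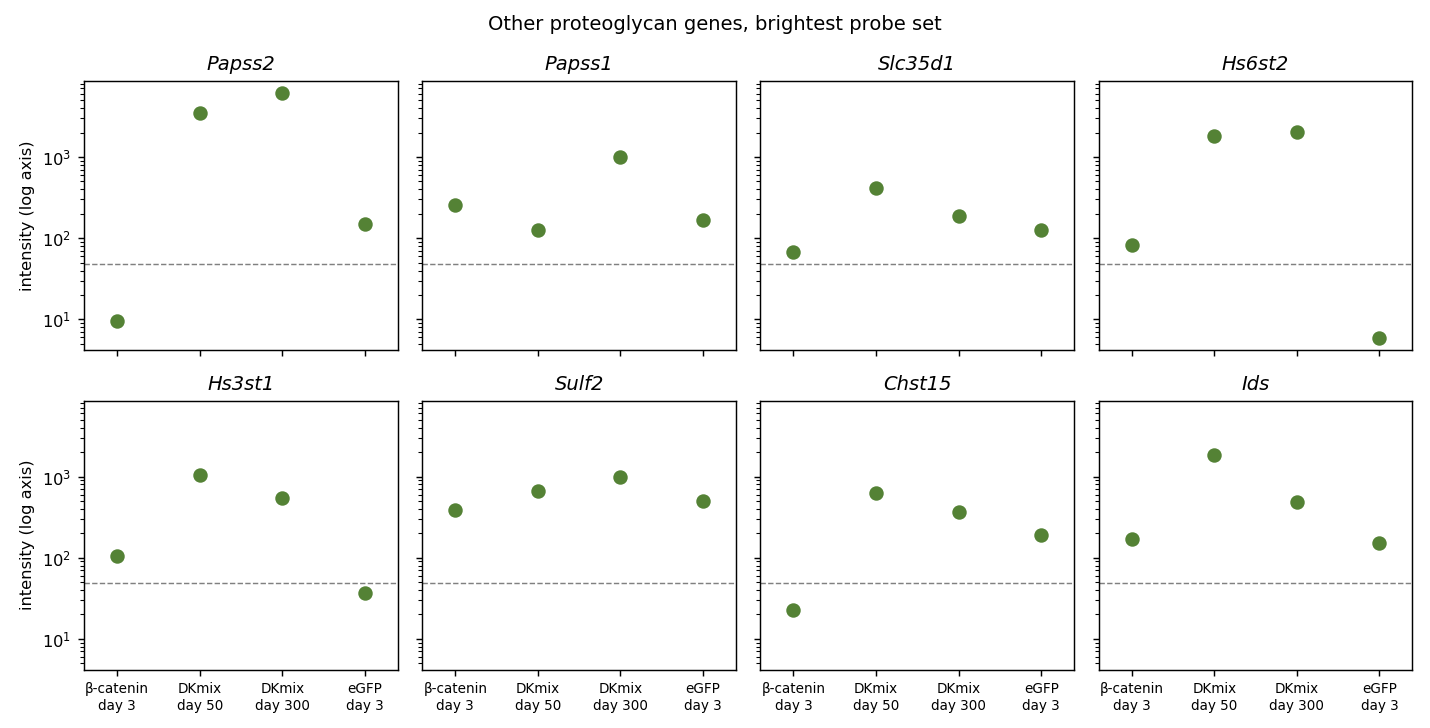
Intensity (log axis) of 8 other proteoglycan genes on the 4 arrays, brightest probe set, 1 point per array, with the floor of 48.3 dashed. Papss2, Hs6st2, Hs3st1, Chst15, Slc35d1, Ids and Sulf2 were higher on both DKmix arrays than on both day 3 arrays, while Papss1 was high on DKmix day 300 only. For Sulf2, 2 of 3 probe sets were at least 2-fold lower in DKmix day 300 over β-catenin day 3.

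The genes with the nearest profiles were sought among 7574 genes above the floor on all 4 arrays, as the smallest root mean square difference of log2 values after centring each gene on its own mean. They were Nbeal1, Ndufa3, Creg1, Tollip and Cmpk1 for Srgn, with differences between 0.027 and 0.083. For Ndst2 they were Cadm1, Tiam1, Rprm, Plxdc2 and Csf2rb2, between 0.15 and 0.31. For Hs6st1 they were Clstn1, Copz2, Nedd4l, Nr3c1 and Neat1, between 0.12 and 0.24, and for Hs2st1 Mdfic, Spcs3, Klc1, Rusc2 and Polr3gl, between 0.067 and 0.12. The nearest to Ext2 were Kmt2a, Arih1, Atp9b, Pip5k1a and Zfp518b, between 0.046 and 0.083. The 5 nearest to Ext1 were D17H6S56E-5, Commd3, the PAPS synthase Papss1, Mfhas1 and Wbp1l, between 0.21 and 0.28. Ext1 was at the floor on DKmix day 50 and eGFP day 3, so its differences depend on the floor. With 4 points per profile, all from the same arrays, such likeness is common and is given as a description.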

How the data were processed

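RNA of 4 samples was measured on 1 Affymetrix array each, from biotin-labelled cRNA per the labels' protocols. The deposited values were linear intensities per probe set, and the submitters' processing notes name MAS5, with no version and no genome build. Each array had a mean of 150 after trimming 2% at either end, so its 45101 intensities were used as deposited. In the annotation table used, 34958 probe sets carry a single symbol, 932 carry several (left unnamed), and 9211 carry none. The 64 control probe sets were left out of gene values.

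Where a gene had several probe sets, the brightest by mean log2 signal stood for it. Ratios were taken after the floor, with Python 3.11.15 and pandas 2.3.3, and the steps were checked on simulated data. No test was possible with 1 array a group, and the number of arrays limits the precision. From each of 7 gene lists, up to 6 genes with the largest ratios past 2-fold in a comparison could be named, and all probe sets of the 8 genes are given. Alternatives were other floors, scales and probe set rules. The genes and lists were chosen with earlier results of these data known. The comparison of DKmix day 50 with eGFP day 3 and the motifs were chosen after seeing the data. Promoter sequences came from RefSeq (GRCm38.p6).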

Additional observations from a re-analysis of the deposited data

Results flagged for a closer look

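By its brightest probe set, each of Ext1 and Ext2 was lower than β-catenin day 3 on DKmix day 50 and higher on DKmix day 300. For Ext2 neither change reached 2-fold. Its log2 ratios were -0.63 at day 50, inside the probe set SD of 0.80, and 0.76 at day 300. Another Ext2 probe set was at least 2.29-fold higher at day 50. The second Ext1 probe set gave a ratio of no more than 0.91 at both times. The gap between the day 300 and day 50 log2 ratios was 3.14 for Ext1, a lower bound because day 50 was below the floor, and 1.39 for Ext2. The difference rests on single arrays and was not tested. DKmix day 50 had the higher Gapdh 3′ to 5′ ratio, 4.96 against 1.18 on β-catenin day 3, and its part in these values was not tested.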

How the results depend on the processing

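On the hybridisation control scale the median log2 ratio of all genes was 0.34 at day 3 (β-catenin over eGFP), -0.73 at day 50 and -0.90 at day 300 (DKmix over β-catenin day 3), and -0.17 for day 300 over day 50. Over all genes 696 were then higher and 5583 lower at day 50, against 2208 and 2162 on the deposited scale, and 558 and 6035 at day 300, against 1773 and 1828. On the control scale 3116 genes were higher and 993 lower at day 3, against 1365 and 1259. The Srgn log2 ratio over β-catenin day 3 was 0.73 at day 50 and -0.65 at day 300 on that scale. Of the 8 genes 4 were then higher at day 3, where the count was 2, 1 higher (4) and 3 lower (1) at day 50, and 1 lower (0) at day 300. The count of 3 genes at least 2-fold above both day 3 arrays on both DKmix arrays became 1 on that scale and stayed 3 with quantile normalization, alternatives chosen for this count after seeing the data. At day 3 the count of 2 higher genes became 0 with the higher floor of 134.6, and 1 when probe sets were averaged or the second brightest was taken. At day 50 the 1 lower gene became 3 with no floor or a floor of 11, and 0 with the higher floor, the mean or the second probe set, or eGFP day 3 in place of β-catenin day 3, an alternative chosen after seeing the data. At day 300 the second probe set left 2 of 4 higher genes. For day 300 over day 50 the 2 higher genes became 4 with no floor or a floor of 11, 1 with the mean and 0 with the second probe set, and quantile normalization left 1 of 2 lower genes, with Srgn lost at -0.49. With the second probe set 2 called ratios changed sign, Ext1 at day 300 over β-catenin day 3 to -0.13 and Ext2 at day 300 over day 50 to -1.20. Of 194 single-gene values under the alternatives, 158 stayed within the probe set SD of the reported ratio, 34 moved further and 2 were called ratios that changed sign. Some uncalled ratios changed sign too and are counted among the 158 or the 34. Ext2 at day 50 over β-catenin day 3, for example, went from -0.63 to 0.19 with the mean of all probe sets. Part of the 158 was fixed in advance. A gene with 1 probe set cannot change under the probe set rules, and a signal above every floor cannot change with the floor. The cause of the changes was not tested where the alternative's construction does not show it. No paired analysis was possible because each group holds 1 array. Srgn, Ndst2, Hs6st1 and Xylt2 rest on 1 probe set each, and the part of the transcript each probe set reads was not used here. Values below the floor have no order.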
